A study of Mus musculus with 12 samples.

Results

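The growth arrest and p53 target genes described here are 10 genes that slow or license the cell cycle, taken by symbol from the deposited table of 54838 mouse genes. All 10 were found: *Cdkn1a*, *Ccng1*, *Ccng2*, *Ccnd1*, *Mdm2*, *Gadd45a*, *Gadd45b*, *Gadd45g*, *Btg1* and *Btg2*. Each had at least 10 read counts in at least 3 libraries. Their levels came from RNA sequencing of whole liver from 12 female wild-type C57BL/6J mice, 3 per group, aged 8 to 14 weeks. For 7 days the drinking water was plain or held 25 mM ZnSO4, and each mouse was then injected intraperitoneally with PBS or with 200 µg of dexamethasone (Dex), a synthetic glucocorticoid that activates the glucocorticoid receptor. Livers were collected 2 h later, so that all mice, controls included, had been injected. The group names join the water and the injection, as in zinc-Dex, with water-PBS as the control, and the question was what Dex, zinc and their combination changed.

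The transcription factor p53 is stabilised by DNA damage and other stress, and switches on genes that halt the cell cycle, repair DNA or start cell death. Mdm2 is the ubiquitin ligase that returns p53 to a low level, and p21, the product of *Cdkn1a*, blocks the cyclin-dependent kinases that carry cells from G1 into S phase. Several of these genes also answer to signals that need no p53, among them glucocorticoids, FoxO factors and inflammatory cytokines. The hepatocytes of an adult liver are mostly quiescent, and the same genes are known there for their part in fasting, stress and regeneration.

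In short, Dex raised *Cdkn1a*, *Gadd45g*, *Gadd45b* and *Ccng2* and lowered *Gadd45a* in both water and zinc mice. Normalized counts (raw counts divided by a size factor for each library) of *Cdkn1a* went from a mean of 137 ± 49.6 (SD, n = 3) in water-PBS to 3903 ± 473 in water-Dex. *Mdm2*, the p53 target that feeds back on p53, went from 327 ± 26.3 to 436 ± 31.8. *Ccng1*, another p53 target, had 608 ± 92.6 and 637 ± 48.5. Of 25 other p53 target genes tested in water mice, 6 were called higher with Dex and 2 lower. Among all genes tested, 4.89% were called higher and 4.79% lower. In bulk liver, fewer cells of a type and less RNA per cell cannot be told apart. Zinc alone led to no called change in any of the 10, beside 0.138% of all genes tested.

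Stretches upstream of the start sites are shown for the 4 genes with the largest Dex effects, and for the other members that hold a p53 motif, because they let a reader set the p53 motif beside the response. The RefSeq promoter table (GRCm38.p6, 250 bases before to 50 after each start) held 9 of the 10 members, in 10 windows, and *Ccnd1* was not among them. The p53 decamer consensus, of which a full p53 element has a pair, is in capitals and was searched on both strands. Sequences run 5′ to 3′ on the strand of the gene.

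Cdkn1a (chr17:29090859-29090958, plus strand): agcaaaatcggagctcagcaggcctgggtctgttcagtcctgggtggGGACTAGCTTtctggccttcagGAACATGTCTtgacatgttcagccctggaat

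Gadd45a (chr6:67037438-67037527, minus strand): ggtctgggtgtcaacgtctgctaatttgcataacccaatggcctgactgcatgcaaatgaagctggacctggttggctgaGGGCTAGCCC

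Gadd45b (chr10:80929971-80930070, plus strand): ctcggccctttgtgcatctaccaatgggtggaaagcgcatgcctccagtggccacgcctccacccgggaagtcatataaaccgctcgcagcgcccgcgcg

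Gadd45g (chr13:51846555-51846654, plus strand): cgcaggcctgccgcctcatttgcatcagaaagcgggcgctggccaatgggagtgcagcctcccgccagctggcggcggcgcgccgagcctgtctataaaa

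Mdm2 (chr10:117710899-117710978, minus strand): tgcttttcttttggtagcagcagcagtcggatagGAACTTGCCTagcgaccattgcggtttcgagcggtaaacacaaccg

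Ccng1 (chr11:40755427-40755506, minus strand): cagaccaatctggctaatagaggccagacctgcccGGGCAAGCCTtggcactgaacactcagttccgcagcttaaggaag

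The decamer lay in the windows of 4 members, *Cdkn1a*, *Gadd45a*, *Mdm2* and *Ccng1*, and in 8.36% of all 32851 RefSeq windows. *Cdkn1a* held 2 copies, which started 73 and 51 bases upstream of its start. The copy of *Gadd45a* started 40 bases upstream of the RefSeq start and lies inside the longer GENCODE gene model. No member window held ACANNNTGT, the core of the glucocorticoid receptor palindrome, which was in 6.85% of all windows. The FoxO letters TGTTTAC were in the windows of *Btg1* and *Mdm2* and in 3.65% of all, and the cyclic AMP response element TGACGTCA was in that of *Btg2* and in 1.79% of all. No matches overlapped one another. These are matches of letters, not bound sites, and they cover only these short windows.

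**Figure D1:**
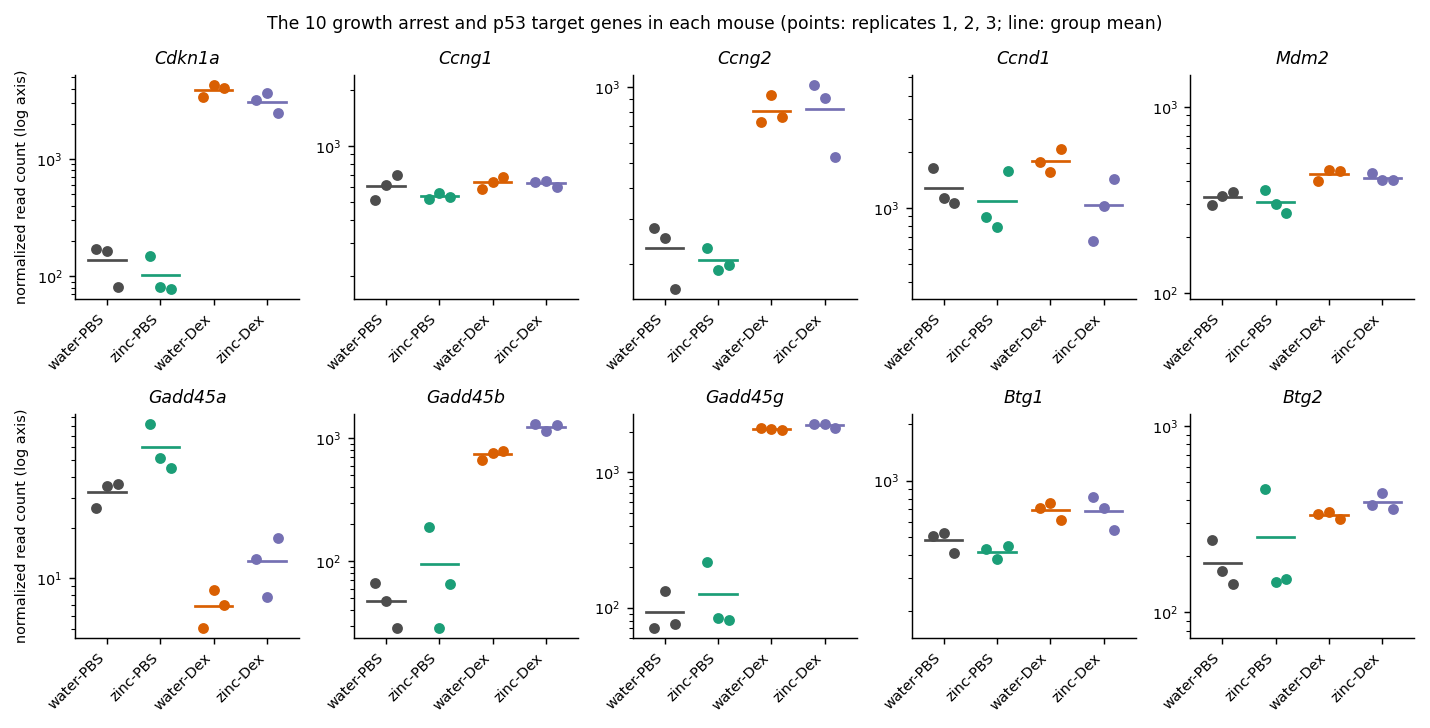
Normalized read counts of the 10 genes on log axes, 1 panel per gene, with 1 point per mouse in the order of the replicate numbers and a line at the group mean, in the 4 groups. The Dex-injected mice sit apart from the PBS-injected mice for *Cdkn1a*, *Ccng2*, *Gadd45b* and *Gadd45g*, all higher, and for *Gadd45a*, all lower, while zinc-PBS replicate 1 stands above its group for *Gadd45b*, *Gadd45g* and *Btg2*.

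The first comparison asked what Dex changed in mice on plain water (water-Dex minus water-PBS). A gene was called when its DESeq2 adjusted p was under 0.05 and its absolute log2 fold change above 0.8. Of the 10 genes, 4 rose and 1 fell. Among all 14221 genes tested, 9.68% were called, 4.89% as higher and 4.79% as lower. The median log2 fold change of the 10 was 0.70, against -0.01 over all genes tested. The members were chosen with earlier results of these data known. Here and below, such counts and medians therefore describe the set and do not test it. The same 5 genes were called by edgeR. In 8 of the 10 the groups did not overlap, 7 with all Dex mice higher and 1 with all Dex mice lower, beside 39.0% of all genes tested.

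The largest log2 fold change was that of the cell cycle inhibitor, with a 95% interval from 4.16 to 5.49. This interval overlapped those of *Gadd45g* (3.73 to 5.26) and *Gadd45b* (2.84 to 5.10). *Cdkn1a* (ENSMUSG00000023067, chromosome 17, 29090976 to 29100727 on mm10) had 169, 163 and 80.2 normalized counts in replicates 1 to 3 of the controls and 3383, 4307 and 4018 in water-Dex. Each Dex mouse was far above each control, although the controls themselves differed, with replicate 3 lowest. The log2 fold change was 4.83 (SE 0.338, DESeq2 adjusted p 8.11e-44), a 28.4-fold increase. By size it was rank 6 among the 530 genes called higher whose mean over all mice reached 50. A gene on the opposite strand, AC167363.2, shares 273 exonic bases with *Cdkn1a*, but had at most 12 raw counts in any library, against 73 to 4061 for *Cdkn1a*.

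The cyclins of this set behaved unlike one another. *Ccng2* (ENSMUSG00000029385, chromosome 5, 93267257 to 93276231) encodes cyclin G2, an unconventional cyclin linked to cell cycle arrest and a known FoxO target. It had 278, 254 and 159 in water-PBS and 729, 936 and 761 in water-Dex. The groups were well apart, and the log2 fold change was 1.81 (SE 0.229, DESeq2 adjusted p 1.11e-13), 3.50-fold. *Ccng1* (ENSMUSG00000020326, chromosome 11, 40748552 to 40755311), which encodes cyclin G1 and is a classical p53 target, had 514, 613 and 698 in water-PBS and 587, 640 and 684 in water-Dex. These ranges overlapped, and its log2 fold change of 0.07 had a 95% interval from -0.16 to 0.29 (DESeq2 adjusted p 0.761). *Ccnd1* (ENSMUSG00000070348, chromosome 7, 144929931 to 144939925) encodes cyclin D1, which drives G1 progression in growing cells. In water-PBS it had 1639, 1127 and 1055, with 1757, 1547 and 2058 in water-Dex. The groups overlapped through water-PBS replicate 1, and the log2 fold change of 0.49 (SE 0.360, DESeq2 adjusted p 0.385) was not called. The adjusted p was 0.0153 in a fit of only these 6 libraries, where the log2 fold change stayed at 0.49, under the threshold. *LTO1* on the opposite strand shares 1100 exonic bases with *Ccnd1*, and had 71 to 174 raw counts.

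The 3 *Gadd45* genes, small stress sensors that bind p21, PCNA and the kinase MTK1, moved in opposite directions. *Gadd45g* (ENSMUSG00000021453, chromosome 13, 51846678 to 51848468) had 70.4, 132 and 75.8 in water-PBS and 2119, 2095 and 2072 in water-Dex. The Dex mice were nearly alike, and the log2 fold change was 4.50 (SE 0.388, DESeq2 adjusted p 5.80e-29), 22.6-fold. *Gadd45b* (ENSMUSG00000015312, chromosome 10, 80930073 to 80932204), known as an NF-κB and TGF-β target, had 66.2, 47.3 and 28.6 in water-PBS and 672, 759 and 793 in water-Dex. Every Dex mouse was above every control, and the log2 fold change was 3.97 (SE 0.576, DESeq2 adjusted p 1.58e-10), 15.6-fold. *Gadd45a* (ENSMUSG00000036390, chromosome 6, 67035096 to 67037457), the family member best known as a p53 target, had 26.3, 35.5 and 36.2 in water-PBS and only 5.08, 8.51 and 6.93 in water-Dex. It fell by 2.26 on the log2 scale (SE 0.452, DESeq2 adjusted p 8.45e-06), a 4.79-fold decrease, from a level that was low to begin with. It shares 337 exonic bases with the opposite-strand gene E230016M11Rik, which had 2 to 13 raw counts, close to the lowest raw count of *Gadd45a*, 5.

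The remaining 3 genes showed smaller differences. *Mdm2* (ENSMUSG00000020184, chromosome 10, 117688875 to 117710758) had 299, 331 and 351 in water-PBS and 399, 457 and 450 in water-Dex. The groups did not overlap, and the log2 fold change of 0.41 (SE 0.124, DESeq2 adjusted p 0.00628) stayed under the fold threshold. *Btg1* (ENSMUSG00000036478, chromosome 10, 96617006 to 96622809), an antiproliferative gene induced by glucocorticoids in lymphocytes, had 505, 521 and 407 in water-PBS and 714, 760 and 615 in water-Dex. It too did not overlap and stayed under the threshold, with a log2 fold change of 0.54 (SE 0.153, DESeq2 adjusted p 0.00318). With these, 7 of the 10 had an adjusted p under 0.05 at any fold, beside 21.6% of all genes tested. *Btg2* (ENSMUSG00000020423, chromosome 1, 134075170 to 134079120), a related p53 target and immediate early gene, had 245, 167 and 142 in water-PBS and 338, 346 and 317 in water-Dex. All Dex mice were higher, with a log2 fold change of 0.86 (SE 0.434), but the DESeq2 adjusted p was 0.159. That p rested on a spread shared with zinc-PBS: without zinc-PBS replicate 1 the same log2 fold change of 0.86 had an adjusted p of 1.28e-05, and with only the 6 libraries compared it was 5.08e-05, so that *Btg2* was then called. The adjusted p of *Mdm2* was 0.0594 when water-Dex replicate 2 was omitted and 0.0568 when water-PBS replicate 1 was.

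**Figure D2:**
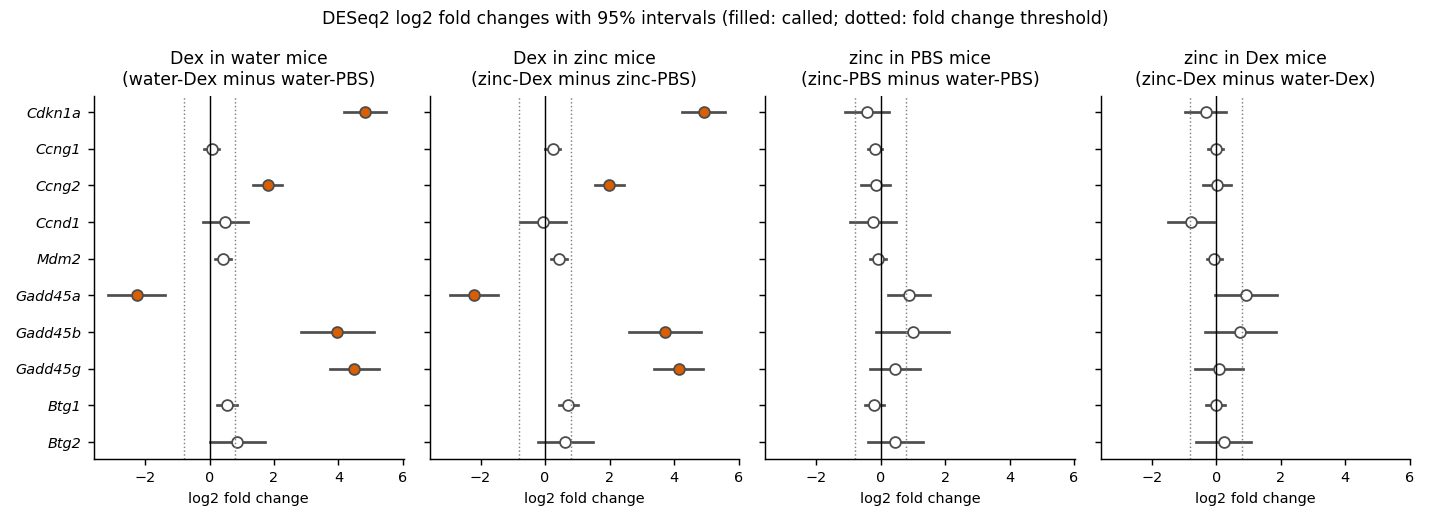
DESeq2 log2 fold changes (points) with 95% intervals (lines) of the 10 genes for Dex in water mice, Dex in zinc mice, zinc in PBS mice and zinc in Dex mice, filled where called, with dotted lines at the fold threshold. *Cdkn1a* is near 5 in both Dex comparisons, *Gadd45a* is below -2 in both, and no point is filled in either zinc comparison.

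The second comparison asked the same of mice given zinc (zinc-Dex minus zinc-PBS). The same 4 genes rose and the same 1 fell, beside 9.68% called of 15657 genes tested, 5.0% as higher and 4.68% as lower. The median of the 10 was 0.68, against -0.01 over all genes tested. *Cdkn1a* had 150, 80.4 and 77.9 in zinc-PBS and 3199, 3642 and 2454 in zinc-Dex, a log2 fold change of 4.92 (SE 0.340, DESeq2 adjusted p 4.60e-45). *Gadd45g* had 217, 83.0 and 80.6 in zinc-PBS and 2278, 2283 and 2147 in zinc-Dex, a log2 fold change of 4.14 (SE 0.385, DESeq2 adjusted p 4.62e-25). In both genes the PBS mouse numbered 1 was the highest of its group and still far below every Dex mouse.

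*Gadd45b* had 189, 28.8 and 65.2 in zinc-PBS and 1309, 1149 and 1289 in zinc-Dex. Its log2 fold change was 3.73 (SE 0.568, DESeq2 adjusted p 1.41e-09), and the zinc-PBS mice ranged widely, with replicate 1 highest. *Ccng2* had 232, 190 and 198 in zinc-PBS and 1024, 906 and 530 in zinc-Dex, where replicate 3 was the lowest of the Dex mice. It rose by log2 1.99 (SE 0.229, DESeq2 adjusted p 1.99e-16). *Gadd45a* had 82.1, 51.6 and 45.3 in zinc-PBS and 13.0, 7.78 and 17.3 in zinc-Dex, and fell by 2.22 on the log2 scale (SE 0.382, DESeq2 adjusted p 1.30e-07).

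*Btg1* and *Mdm2* again had adjusted p under 0.05 and stayed under the fold threshold, so that 7 of 10 passed at any fold, beside 20.1% of all genes tested. *Btg1* had 428, 379 and 444 in zinc-PBS and 815, 709 and 544 in zinc-Dex, a log2 fold change of 0.72 (DESeq2 adjusted p 3.17e-05), and was called without zinc-Dex replicate 3 (log2 0.87). *Mdm2* had 358, 302 and 271 in zinc-PBS and 441, 404 and 407 in zinc-Dex, a log2 fold change of 0.43 (DESeq2 adjusted p 0.00431, but 0.0616 without zinc-PBS replicate 3). The groups of both genes did not overlap, as in 8 of the 10 genes and in 38.1% of all genes tested. *Btg2* had 461, 146 and 150 in zinc-PBS and 378, 438 and 359 in zinc-Dex. Here zinc-PBS replicate 1 was above every zinc-Dex mouse, and the log2 fold change of 0.63 (SE 0.432, DESeq2 adjusted p 0.352) was not called. Without that library it was 1.40 (DESeq2 adjusted p 2.92e-11), and without zinc-PBS replicate 2 it was 0.36 (adjusted p 0.687). *Ccng1* had 516 to 560 in zinc-PBS and 599 to 651 in zinc-Dex, a log2 fold change of 0.23 (DESeq2 adjusted p 0.153). *Ccnd1* had 897, 785 and 1572 in zinc-PBS and 660, 1017 and 1430 in zinc-Dex, a log2 fold change of -0.07 (DESeq2 adjusted p 0.938).

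The third comparison asked what zinc changed without Dex (zinc-PBS minus water-PBS). None of the 10 was called by DESeq2 or by edgeR, beside 0.138% of 12307 genes tested, and 1 had an unadjusted p under 0.05. That gene was *Gadd45a*, with 26.3 to 36.2 normalized counts in water-PBS and 45.3 to 82.1 in zinc-PBS. All zinc mice were higher, with a log2 fold change of 0.87 (SE 0.332, DESeq2 adjusted p 0.478), which was 0.57 without zinc-PBS replicate 1 and 0.43 without both PBS mice numbered 1. It was the only member whose groups did not overlap, beside 11.9% of all genes tested. The log2 fold changes of *Gadd45b* (0.99), *Gadd45g* (0.45) and *Btg2* (0.45) became -0.02, -0.20 and -0.32 without zinc-PBS replicate 1, and that of *Cdkn1a* went from -0.42 to -0.80. None of these was called with or without that mouse.

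Zinc-PBS replicate 1 stood apart in several members and in other genes. Relative to the median of the 6 PBS mice, it had 3.35 times the count of *Gadd45b*, 2.91 times that of *Btg2*, 2.65 times that of *Gadd45g* and 2.02 times that of *Gadd45a*, each the highest of the 6. It was also the highest of the 6 in 9 of 12 immediate early genes, with *Junb* at 4.53 times and *Ier3* at 11.7 times the median, and in *Mdm2*, where it was only 1.13 times the median. Its 5 neutrophil markers summed to 116 normalized counts, against 28.8 to 59.8 in the other PBS mice. Water-PBS replicate 1 was highest in 1 immediate early gene, *Egr1* at 4.77 times the median, and in 3 members, *Ccnd1* (1639 normalized counts, against a median of 1091), *Cdkn1a* (1.47 times the median) and *Ccng2* (1.29 times). The part of these values in the results of the members was not tested. A fit without both mice, added after the data were seen, called the same 5 genes with Dex in water mice and in zinc mice, and *Btg2* as well in each.

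**Figure D3:**
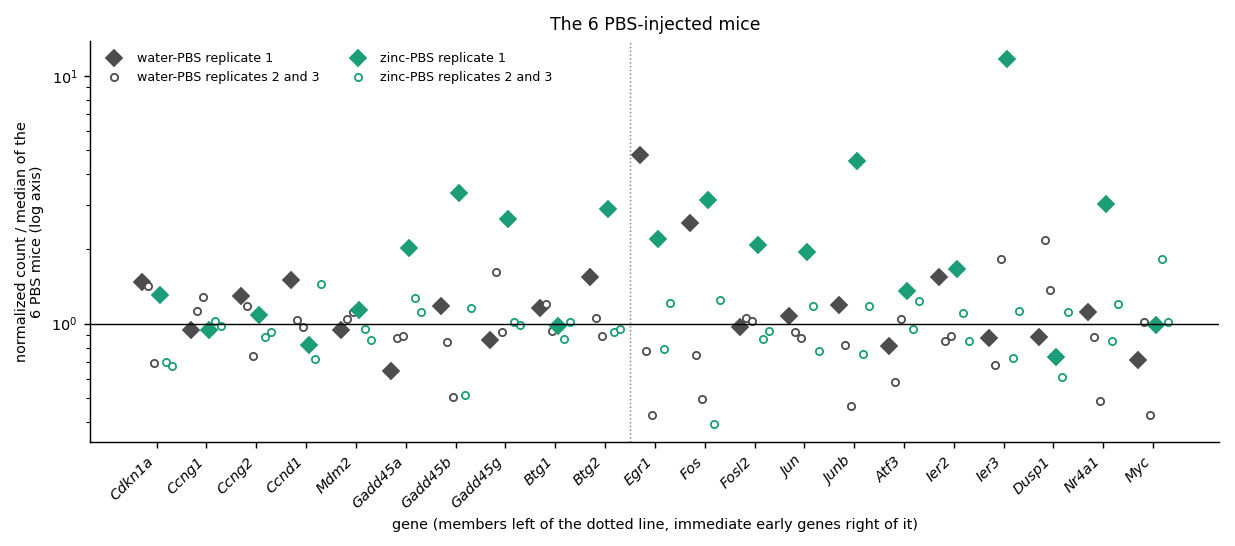
Normalized counts of the 6 PBS-injected mice divided by their median, on a log axis, for the 10 genes and for 11 immediate early genes, with filled diamonds for the mice numbered 1 and open circles for the others. *Fosb*, with 0 counts in some of these mice, is left out. Zinc-PBS replicate 1 is the highest point for 5 of the 10 members, among them the 3 *Gadd45* genes and *Btg2*, and for most immediate early genes.

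The fourth comparison asked what zinc changed under Dex (zinc-Dex minus water-Dex). Again DESeq2 and edgeR called none of the 10, beside 0.469% of 12786 genes tested, and 1 had an unadjusted p under 0.05. That gene was *Ccnd1*, which had 660, 1017 and 1430 in zinc-Dex, below the 1547 to 2058 of water-Dex. All zinc mice were lower, with a log2 fold change of -0.79 (SE 0.360, DESeq2 adjusted p 0.404). In 3 further genes all zinc mice were higher, so that 4 of 10 did not overlap, beside 20.0% of all genes tested. Of these, *Gadd45b* showed the largest difference, at 672 to 793 in water-Dex and 1149 to 1309 in zinc-Dex. Its log2 fold change of 0.75 (SE 0.563) had a DESeq2 adjusted p of 0.759 with the spread shared over all 12 mice. With only the 6 Dex mice in the fit, the log2 fold change was again 0.75 and the adjusted p 2.31e-08, and without zinc-PBS replicate 1 it was 0.00941. It stayed just under the fold threshold in both and so was not called. *Gadd45g*, with 2072 to 2119 in water-Dex and 2147 to 2283 in zinc-Dex, also did not overlap, but its log2 fold change was only 0.09 (95% interval -0.65 to 0.84, DESeq2 adjusted p 0.978). The last of the 3 was *Btg2*, with 317 to 346 in water-Dex and 359 to 438 in zinc-Dex, a log2 fold change of 0.23 (DESeq2 adjusted p 0.953). *Gadd45a* had 5.08 to 8.51 in water-Dex and 7.78 to 17.3 in zinc-Dex, which overlapped, at a log2 fold change of 0.91 (DESeq2 adjusted p 0.535). For *Cdkn1a*, the log2 fold change was -0.33, with a 95% interval from -0.98 to 0.32.

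With both treatments against the control (zinc-Dex minus water-PBS), 5 of the 10 were called, beside 7.24% of 21401 genes tested, and the groups of 8 of 10 did not overlap, beside 29.5% of all genes tested. This comparison shares its control mice with the first and its treated mice with the second, so the values stand side by side and are not independent. *Gadd45b* rose by log2 4.72 (SE 0.575, DESeq2 adjusted p 1.39e-14), 26.4-fold, *Gadd45g* by 4.59, *Cdkn1a* by 4.49 and *Ccng2* by 1.83. *Gadd45a* fell by 1.35 on the log2 scale (SE 0.396, DESeq2 adjusted p 0.00669). *Btg2* had a log2 fold change of 1.09 and a DESeq2 adjusted p of 0.0743, and edgeR called it at 1.08 (adjusted p 0.0286). It was called in 10 of its 19 alternative fits.

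The interaction asked whether the Dex effect differed between zinc and water mice. None of the 10 was called by DESeq2 or edgeR and none had an unadjusted p under 0.05, beside 0.0191% called of 26185 genes tested. The intervals show how large a difference could have been missed. For *Cdkn1a* the log2 difference was 0.09 (95% interval -0.85 to 1.03), for *Ccng2* 0.18 (-0.46 to 0.81), for *Gadd45g* -0.35 (-1.43 to 0.72) and for *Gadd45b* -0.24 (-1.82 to 1.35). The last 2 turned positive without zinc-PBS replicate 1, at 0.29 and 0.77. *Mdm2* had the narrowest interval among genes with an adjusted p under 0.05 in both Dex comparisons, 0.02 (-0.33 to 0.36).

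Levels can be compared between genes only per length, here as mean normalized counts per kilobase of GENCODE M21 exon. In water-PBS the cyclins *Ccnd1* (270 ± 67.6) and *Ccng1* (173 ± 26.4) were highest and did not overlap with each other or with the next gene, *Btg1* (90.5 ± 11.6). *Btg1*, *Gadd45g* (79.0 ± 29.1), *Btg2* (67.2 ± 19.6) and *Mdm2* (64.4 ± 5.17) overlapped from one to the next. They were followed, without overlap between *Mdm2* and the gene after it, by *Ccng2* (42.2 ± 11.5), *Cdkn1a* (38.7 ± 14.0), *Gadd45b* (29.8 ± 11.8) and *Gadd45a* (18.5 ± 3.15), which also overlapped from one to the next. In water-Dex the order was another. *Gadd45g* (1786 ± 20.0), *Cdkn1a* (1098 ± 133) and *Gadd45b* (467 ± 39.1) came first, the first 2 of them without overlap, and *Gadd45b* overlapped with *Ccnd1* (380 ± 54.5). *Gadd45a* was last at 3.88 ± 0.974, without overlap with the gene above it, *Mdm2* (85.7 ± 6.26). In zinc-PBS the order began with *Ccnd1* (230 ± 90.4) and *Ccng1* (153 ± 6.35) and ended with *Gadd45a* (33.8 ± 11.2) and *Cdkn1a* (28.9 ± 11.5), whose ranges overlapped. In zinc-Dex, *Gadd45g* (1906 ± 65.4) led, and *Cdkn1a* (872 ± 169) and *Gadd45b* (786 ± 55.0) overlapped.

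**Figure D4:**
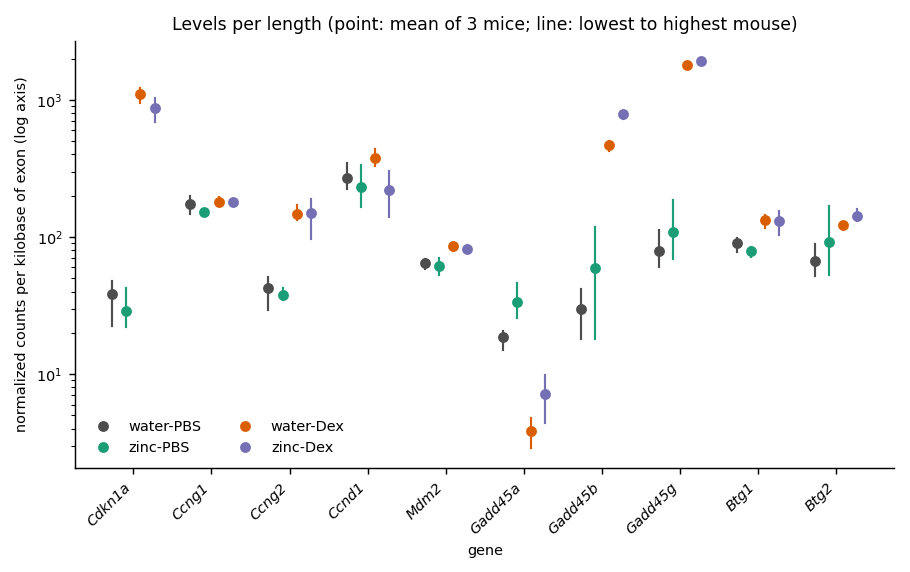
Normalized counts per kilobase of exon of the 10 genes on a log axis, with points at the mean of 3 mice and lines from the lowest to the highest mouse, in the 4 groups. *Ccnd1* is highest in both PBS groups and *Gadd45g* in both Dex groups, and *Gadd45a* is the lowest gene in water-PBS and in both Dex groups.

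The genes around these members were read as lists, by counts and medians, beside the share of all genes called that is given above for each comparison. Of p53 and its regulators, DESeq2 called 0 of 6 with Dex in water or zinc mice (median log2 fold change -0.19 and -0.14). In each comparison 2 of them had an unadjusted p under 0.05, and edgeR called 0 in water mice and 1 in zinc mice. *Trp53*, which encodes p53 itself, had 179 ± 11.1 in water-PBS and 147 ± 17.8 in water-Dex (log2 -0.29, DESeq2 adjusted p 0.157). In zinc mice it had 194 ± 19.6 with PBS and 133 ± 10.9 with Dex (log2 -0.55, DESeq2 adjusted p 0.00222), and with both treatments against the control the log2 fold change was -0.43 (DESeq2 adjusted p 0.0305). *Atm*, the DNA damage kinase that acts on p53, had 166 ± 11.4 in water-PBS and 117 ± 9.90 in water-Dex (log2 -0.50, DESeq2 adjusted p 0.00829), -0.23 in zinc mice (adjusted p 0.329) and -0.41 with both treatments (adjusted p 0.0456). These differences passed the adjusted p and stayed under the fold threshold, apart from those of *Trp53* in water mice and *Atm* in zinc mice, which did not pass it, and both genes were named after their values were seen. Of 25 other p53 target genes tested in water mice, 6 rose and 2 fell, with a median of 0.10. *Trp53inp1*, which links p53 to autophagy and cell death, rose from 1071 ± 138 to 7089 ± 779 (log2 2.73, DESeq2 adjusted p 1.51e-54). *Gdf15*, a stress-induced cytokine of the TGF-β family, rose from 62.1 ± 16.4 to 275 ± 46.9 (log2 2.14). *Bbc3*, the cell death gene PUMA, fell by 1.62 on the log2 scale, from 74.9 ± 8.88 to 24.4 ± 9.34. In zinc mice 8 of 26 rose and 2 fell, with a median of -0.20, and the largest changes were those of *Trp53inp1* (3.00), *Gdf15* (2.55) and the kinase gene *Plk3* (1.70).

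Other genes of the cell cycle were read beside the 9.68% of all genes tested that were called with Dex, in water mice and in zinc mice alike. Of the other CDK inhibitors, DESeq2 and edgeR called 0 of 4 with Dex in water or in zinc mice (median -0.29 and -0.36), with 1 and 2 at an unadjusted p under 0.05. Of 13 genes of the G1 and S phase machinery, the growth factor-responsive *Myc* rose by 1.95 and the cyclin gene *Ccnd2* fell by 0.83 on the log2 scale in water mice (-0.71 and not called without water-Dex replicate 2, and -0.74 and not called without water-PBS replicate 3), and only *Myc* was called in zinc mice (1.38). Of the other BTG and TOB genes, 1 of 3 rose in both, *Tob2* (1.13 and 1.36). Of 13 proliferation markers, DESeq2 called 0 with Dex in water mice (median -0.58) and 1 in zinc mice, *Mcm2* (-0.85), where edgeR called 0 and 2. In each comparison 4 of them had an unadjusted p under 0.05. Against the control, zinc-Dex had 3 called lower, *Mki67* (-1.46), *Top2a* (-1.21) and *Mcm2* (-0.98), with a median of -0.98 over the 13. In that comparison edgeR called 6 of the 13, and 10 had an unadjusted p under 0.05. These counts depended on the control mice. Without water-PBS replicate 3 DESeq2 called 4 with Dex in water mice, 2 in zinc mice and 10 with both treatments, and without water-PBS replicate 1 it called 1 with both. *Mcm2* in zinc mice was called in only 2 of the 12 fits that left out 1 library. The control mice differed among themselves, with proliferation marker sums of 1089, 885 and 506 normalized counts in water-PBS replicates 1 to 3.

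Of 11 immediate early genes tested in water mice, 4 rose and 2 fell with Dex (median 0.35). The largest changes were *Egr1* (-3.42), the phosphatase gene *Dusp1* (2.51) and *Junb* (-2.41), of which *Egr1* was -1.70 without water-PBS replicate 1. In zinc mice 4 rose and 3 fell, with a median of -0.07, and the largest changes were *Junb* (-3.36), *Dusp1* (3.25) and *Ier3* (-3.10). The falls of *Junb* and *Ier3* leaned on zinc-PBS replicate 1. *Ier3* had 141, 8.74 and 13.6 normalized counts in zinc-PBS and 4.34 to 8.89 in zinc-Dex, and without that mouse its log2 fold change was -0.82 (DESeq2 adjusted p 0.489), while that of *Junb* was -2.20 (DESeq2 adjusted p 1.66e-11). The remaining fall in zinc mice was that of *Egr1* (-2.33), which was -1.84 without zinc-PBS replicate 1 (DESeq2 adjusted p 0.142). *Egr1* was also not called without zinc-PBS replicate 3, or without zinc-Dex replicate 1, 2 or 3. Leaving out 1 library gave 5 to 7 calls among these genes. Of the 78 genes in these 7 lists, DESeq2 and edgeR called 0 in either zinc comparison, and 10 without Dex and 11 under Dex had an unadjusted p under 0.05. Leaving out 1 library gave at most 1 call in any of these lists there. Under Dex, 2 other p53 target genes had a DESeq2 adjusted p under 0.05 and stayed under the fold threshold, *Sesn1* (log2 0.61, adjusted p 0.00458) and *Tigar* (log2 -0.77, adjusted p 0.0201), which were named after their values were seen. Of the genes named from these lists, *Plk3*, *Tigar*, *Ccnd2*, *Tob2*, *Mki67*, *Dusp1* and *Junb* each overlap a gene on the opposite strand, so that their own levels are uncertain.

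**Figure D5:**
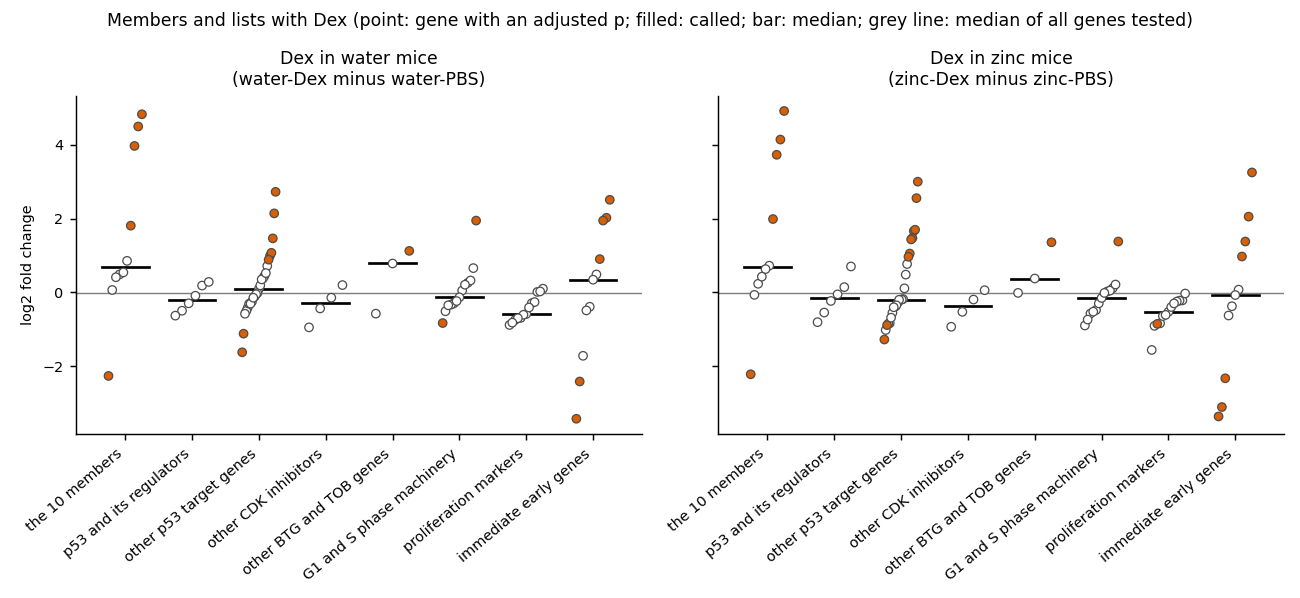
DESeq2 log2 fold changes with Dex in water mice (left) and in zinc mice (right) for the 10 genes and 7 lists, with 1 point per gene that had an adjusted p, filled where called, a bar at the median and a grey line at the median of all genes tested. *Cdkn1a*, *Gadd45g* and *Gadd45b* lie above every listed gene in both panels.

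Markers of the cell types that whole liver could hold were read beside the members. The 6 hepatocyte markers summed to 1171990 to 1354200 normalized counts in the PBS mice and 1518510 to 1665380 in the Dex mice. Most of these counts were *Alb*, with 961037 to 1138890 in the PBS mice and 1250950 to 1349830 in the Dex mice. DESeq2 and edgeR called 0 of the 6 with Dex, and 4 in water mice and 5 in zinc mice had an unadjusted p under 0.05. At any fold, 3 in water mice and 5 in zinc mice had a DESeq2 adjusted p under 0.05, beside 21.6% and 20.1% of all genes tested. Of 8 Kupffer cell, 6 stellate cell and 5 bile duct markers, DESeq2 and edgeR called 0 with Dex in water mice, with 2, 1 and 1 at an unadjusted p under 0.05. In zinc mice DESeq2 again called 0 of each, with 0, 4 and 1 at an unadjusted p under 0.05, and edgeR called 1 bile duct marker. The stellate cell genes *Hgf* (0.56) and *Dcn* (0.34) had a DESeq2 adjusted p under 0.05 there. *Lrat*, of the same list, was lower with Dex, with 360 to 376 normalized counts in water-PBS and 183 to 301 in water-Dex. It had 347 to 372 in zinc-PBS and 232 to 336 in zinc-Dex. In water mice 1 stellate cell marker had a DESeq2 adjusted p under 0.05, and 1 was called without water-Dex replicate 1. Of 6 endothelial markers, *Lyve1* rose (log2 2.53 in water and 2.81 in zinc mice) and *Kdr* fell (-1.14 and -1.26). The 7 lymphocyte markers summed to 38.4 to 51.0 normalized counts in water-PBS and 20.2 to 25.4 in water-Dex, and *Ms4a1* was called lower (-2.80), which was lost without water-Dex replicate 2 (adjusted p 0.0635) or 3 (0.0947) and given no adjusted p without water-PBS replicate 1 or 3. In zinc mice DESeq2 called 0 lymphocyte markers and edgeR called 2, with 2 at an unadjusted p under 0.05. Their sums were 44.6 to 65.9 in zinc-PBS and 25.5 to 31.7 in zinc-Dex. The median log2 fold change of the lymphocyte markers tested was -1.36 in water mice and -1.25 in zinc mice. The 5 neutrophil markers summed to 29.1 to 32.9 in water-PBS and 19.1 to 48.5 in water-Dex. The 5 red blood cell markers summed to 888 to 1561 in water-PBS and 1212 to 2135 in water-Dex. In zinc mice the sums did not overlap, at 778 to 968 with PBS and 1362 to 1513 with Dex. DESeq2 and edgeR called 0 of these markers in water mice, with 2 at an unadjusted p under 0.05 (3 called by DESeq2 without water-PBS replicate 3). *Hba-a1* was called higher with Dex in zinc mice (0.95), where 3 of the 5 had a DESeq2 adjusted p under 0.05 and 4 an unadjusted p under 0.05. Of 6 pancreas markers, 3 were at 0 in all 12 libraries (*Prss2*, *Cpa1* and *Pnlip*), while *Cela1* had 61.9 to 134 normalized counts. The gut epithelium markers *Fabp2* and *Lgals4* were also present in all 12 libraries, with 503 to 737 and 34.5 to 101. Of 3 gut epithelium markers tested in water mice DESeq2 and edgeR called 0 with Dex, with 0 at an unadjusted p under 0.05. In zinc mice *Vil1* was called lower (-2.04). The part of these cell types in the results of the members was not tested.

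For each of the 5 called genes, the genes with the most similar profile over the 12 mice were found among 9565 others that averaged 50 normalized counts or more, by the root mean square difference of centred log2 values. *Cdkn1a* was closest to *Phf11c* (0.35) and the lipid droplet gene *Plin4* (0.56). *Ccng2* was closest to *Megf9* (0.21) and the integrin gene *Itgb3* (0.26). *Gadd45g* was closest to *Lcn2*, which encodes the iron-siderophore binding protein lipocalin 2 (0.35), and to *Plin4* (0.37). *Gadd45b* was closest to the small Maf factor gene *Maff* (0.42) and to *Lcn2* (0.51). *Gadd45a*, the gene that fell, was closest to *Nab2*, a corepressor of EGR factors (0.27), and to the Polycomb gene *Cbx2* (0.38). In water mice given Dex, *Nab2* fell by 1.55 on the log2 scale and *Cbx2* by 2.00. With zinc in PBS mice their log2 fold changes were 0.92 and 0.51, beside 0.87 for *Gadd45a*, which was not called. The study lists *Nab2* among the liver genes that zinc raised. *Phf11c* belongs to a family of similar genes, and *Plin4* and *Nab2* overlap genes on the opposite strand, so their levels are uncertain. These are descriptions over mice that differ mainly by the Dex injection.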

How the data were processed

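Total RNA from 12 livers was sequenced as single-end reads of stranded libraries. The authors mapped the reads to mm10 with HISAT2 2.0.4 and made counts per gene with featureCounts, leaving out multimapping reads. The deposited values are raw counts, with no normalization, 9091152 to 12303527 per library. Trimmomatic and SAMtools are also named in the submitters' processing notes. The annotation release and the strand setting are not given in the sources used here, so overlapping opposite-strand genes are uncertain. Symbols, coordinates and exon lengths came from GENCODE M21 (GRCm38), with 54723 of 54838 identifiers matched to a symbol. All columns held whole numbers, and replicates differed by 5.70 to 18.8 times counting noise (chi-square per degree of freedom), so none was a copy. The submitters call the replicates biological, and no batch is given in the labels.

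Counts of all genes entered a single DESeq2 (1.42.0) model in R (4.3.3) of 12 libraries with 1 coefficient per group, tested by Wald tests of unshrunken fold changes with Benjamini-Hochberg adjustment over all genes, following the study's methods. Genes whose adjusted p DESeq2 left out were counted as not tested. An exact permutation test of 3 against 3 mice reaches no p lower than 0.1, and the adjusted p of a gene therefore leans on the spread that the model shares between groups. Alternatives were edgeR 4.0.16 (quasi-likelihood), TMM factors, a filter of 10 counts in 3 libraries, no filtering, no fold threshold, a replicate number term, only the groups compared, leaving out each library, and, added after the data were seen, leaving out both PBS mice numbered 1. The scripts were tested on simulated data.

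The members and lists were chosen with earlier results of these data known. The text names the 10 members, up to 3 called genes of largest fold change per list and comparison, and the 2 most similar genes of each called member. Some further listed genes and markers were named after their values were seen. Markers, p53 target and cell cycle lists were written from general knowledge. Promoter windows and motif letters were read from the RefSeq table (GRCm38.p6).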

Additional observations from a re-analysis of the deposited data

How the results depend on the processing

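Over 20 alternatives (19 for the interaction), the number of the 10 genes called was 5 to 7 with Dex in water mice, in zinc mice and with both treatments, and 0 in both zinc comparisons and in the interaction. Leaving out 1 library gave 5 to 6 in each of the first 3. No called gene lost its call or changed direction in any alternative. The highest adjusted p of a called gene was 0.0469, for *Gadd45a* with both treatments without zinc-Dex replicate 2. Without the fold threshold *Btg1* and *Mdm2* were added, which gives the 7. The call of *Btg2* depended on the fit, as given above. With Dex in zinc mice *Gadd45b* ranged from a log2 fold change of 3.30 without zinc-PBS replicate 2 to 4.74 without both PBS mice numbered 1. With both treatments, the adjusted p of *Mdm2* rose from 0.0348 to 0.139 without water-PBS replicate 1, and that of *Btg1* from 0.00613 to 0.0581 without zinc-Dex replicate 1. *Gadd45a* was given no adjusted p in several alternatives of the zinc comparisons.

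The groups share replicate numbers, but the values showed no sign that the numbers pair the mice. The correlation of deviations from the group means was -0.20 to 0.19 over 18 pairs with the same number. It was -0.24 to 0.28 over 36 pairs with other numbers, and 6 of 36 comparisons matched a mouse best with its own number. Such correlations cannot exclude a pairing in the design. With the replicate block, 5 genes were called with Dex in water mice, 5 in zinc mice, 6 with both treatments (*Btg2* added, log2 1.15, DESeq2 adjusted p 0.0142) and 0 in the zinc comparisons and the interaction.

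Depth limits *Gadd45a* most, with 5 raw counts in its lowest library.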
